A study of Mus musculus with 19 samples.

Results

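The Cyp2b gene cluster of mouse Chr7 was examined by array comparative genomic hybridization (aCGH) in DNA of 9 unaffected mouse livers, 4 hepatocellular adenomas (HCA) and 6 hepatocellular carcinomas (HCC). The cluster was taken as all 27 probes from 26684100 to 27057266 of Chr7 on the mouse build NCBI37 (mm9), the stretch given for Cyp2b10, Cyp2b13 and Cyp2b9. The array holds 221455 autosomal probes in all. The stretch was selected on its log ratios in these same samples, those of each sample and of each tumor against its own liver, so its level in each sample and the difference of each tumor from its own liver are given below as a description, without a test. Probes on both sides served as comparison, 59 from 26205423 to 26671130 (the left flank) and 38 from 27076279 to 27497057 (the right flank).

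The 9 mice each gave 1 unaffected liver. All of them were Mad2 f/f and carried AlbuminCre, which deletes floxed alleles in hepatocytes, and the unaffected livers share these alleles with the tumors. Mice 2430 and 6199 were Mad2(f/f) p53(f/f) and mice 5884 and 5901 were Mad2(f/f) p53(f/+). These 4 were females aged 12 to 16.9 months and each gave 1 HCA. The other 5 mice were Mad2(f/f) with a Trp53 point mutation (Trp53 R246S here, written p53ser246+ as genotype and p53ser249 in the strain name) and gave the HCCs at 12.3 to 16.2 months. Of these, 6240 and 6602 were females and 6487, 6565 and 6642 were males. Mouse 6240 gave 2 HCCs, labelled 4 and 2. Tumor type therefore coincided completely with Trp53 genotype, and the 2 cannot be told apart. Cy5 marked the sample DNA. Cy3 marked wild-type liver DNA of the other sex as control, so that female samples met male control DNA and male samples met female control DNA. Sex and control DNA cannot be told apart either. The X chromosome differed from the autosomes in the direction given by the sexes on all 19 arrays. Arrays were scanned on 3 days. The labels do not say whether the samples were processed separately, so the spread between them may be partly technical. The precision is limited by how few arrays there are.

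Cyp2b genes encode cytochrome P450 enzymes, membrane proteins of the endoplasmic reticulum that oxidize drugs and steroids. In mouse liver Cyp2b10 is the classical target of the nuclear receptor CAR and is induced by phenobarbital, whereas Cyp2b9 and Cyp2b13 are known for higher expression in females than in males. Such clusters of paralogs arise by tandem duplication. Here only DNA was measured. In the RefSeq annotation of the later build GRCm38.p6, 6 other annotated genes lie in the row from Cyp2b10 to Cyp2b9, 3 of which are the Cyp2b pseudogenes Cyp2b28-ps, Cyp2b27-ps and Cyp2b26-ps. Cyp2s1 is the nearest cytochrome P450 gene before Cyp2b10 and Cyp2a4 the nearest after Cyp2b9. The files name no genes and the annotation at hand is on another build than the probes, so which probe lies in which gene, exon or intron was not analysed here, and all values below are given by position.

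The promoters of the 3 genes are shown because they let a reader see how alike the paralogs are whose DNA the probes measured. Each is a stretch of 300 bases that ends shortly after the start of the gene, as given by RefSeq on GRCm38.p6. Positions on that build were not converted to the build of the probes. Capitals mark the bases at which Cyp2b13 and Cyp2b9 differ.
Cyp2b10, chr7:25897408-25897707, + strand: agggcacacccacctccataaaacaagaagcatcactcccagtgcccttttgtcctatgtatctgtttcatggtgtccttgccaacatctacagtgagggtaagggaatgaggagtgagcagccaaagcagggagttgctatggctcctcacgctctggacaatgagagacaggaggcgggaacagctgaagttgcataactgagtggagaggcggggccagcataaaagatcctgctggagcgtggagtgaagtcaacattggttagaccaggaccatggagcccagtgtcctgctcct
Cyp2b13, chr7:26061245-26061544, + strand: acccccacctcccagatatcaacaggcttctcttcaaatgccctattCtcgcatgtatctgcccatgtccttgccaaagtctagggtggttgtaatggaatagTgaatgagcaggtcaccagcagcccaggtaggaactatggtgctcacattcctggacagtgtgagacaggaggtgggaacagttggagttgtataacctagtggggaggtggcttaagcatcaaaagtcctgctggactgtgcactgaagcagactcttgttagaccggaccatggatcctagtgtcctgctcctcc
Cyp2b9, chr7:26173159-26173458, + strand: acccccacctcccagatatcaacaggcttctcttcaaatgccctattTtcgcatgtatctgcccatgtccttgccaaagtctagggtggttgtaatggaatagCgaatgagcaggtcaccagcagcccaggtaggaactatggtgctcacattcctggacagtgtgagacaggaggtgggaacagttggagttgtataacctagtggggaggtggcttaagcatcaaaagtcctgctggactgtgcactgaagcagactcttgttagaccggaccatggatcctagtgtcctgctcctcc
Cyp2b13 and Cyp2b9 had the same base at 298 of 300 positions. The differences, counted from 1 at the 5′ end and written with the base of Cyp2b13 first, were C48T and T104C. After alignment, Cyp2b10 matched either of them at 229 of 286 aligned bases (80.1%). On that build the promoters of Cyp2b10 and Cyp2b13 lay 163.8 kb apart and those of Cyp2b13 and Cyp2b9 111.9 kb apart. The sequences of the array probes were not analysed here, and it was not tested whether a probe binds more than 1 of these genes.

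The aCGH ratio of a probe is log2(Cy5/Cy3) minus the median of the rest of Chr7 on the same array, so that 0 means as much sample DNA as control DNA relative to that chromosome. As a scale, X, which females carry in 2 copies and males in 1, differed from the autosomes by a median of 0.957 (range 0.319 to 1.09) over the 19 arrays. The smallest of these values was that of HCC 2 of mouse 6240. Along the cluster the 27 probes fell into 3 stretches by their values. The first 9 probes (26684100 to 26743483) and the last 5 (26987202 to 27057266) had means of −0.02 to 0.22 and of −0.29 to 0.07 over the 19 arrays. The 13 probes between them (26772611 to 26973242, 200.6 kb) carried nearly all of the variation. At the edges, the probe at 26743426 read 0.20 in the liver of mouse 6199 and 0.17 in that of mouse 6240, and the next one at 26772611 read −0.65 and −1.01. At the other end the probe at 26973183 read −4.49 and −4.37 in these livers, at spots not well above background in Cy5, and the one at 26987202 read −0.12 and −0.58. The probes just outside the chosen window, at 26671071 and 27076279, read 0.12 and 0.68 in the liver of mouse 6199 and 0.43 and 0.21 in that of mouse 6240. The window was thus wider than the stretch that varied.

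**Figure D1:**
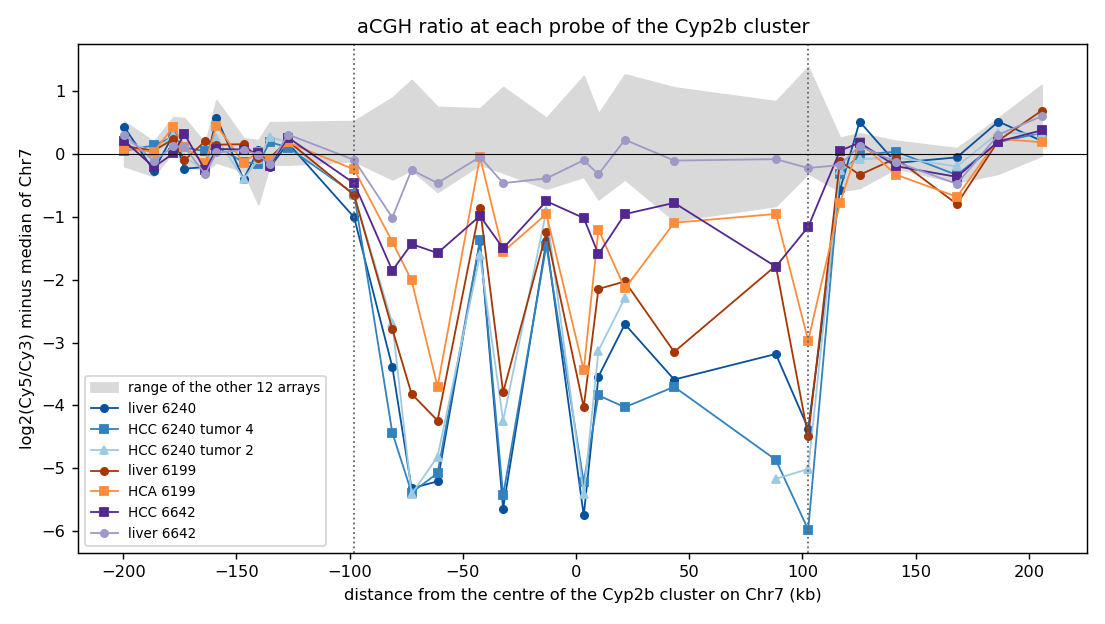
Ratio of each probe of the Cyp2b cluster and of the nearest probe on either side, as log2(Cy5/Cy3) minus the median of Chr7 (y axis), against its distance in kb from the centre of the cluster (x axis). Coloured lines are the samples of mice 6199, 6240 and 6642, the grey band is the range of the other 12 arrays, and dotted lines mark the ends of the middle stretch, inside which the samples of mice 6199 and 6240 and HCC 6642 lie below 0 on average (−3.96 to −1.22). The means of the stretches on either side lie between −0.29 and 0.22 on all arrays, with more spread at single probes.

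Over the whole cluster, the mean ratio of the 9 unaffected livers was −0.25 ± 0.74 (SD, n = 9). It was 0.18, 0.24, 0.29 and −1.31 in the floxed mice 2430, 5884, 5901 and 6199. In the Trp53 R246S mice 6240, 6602, 6487, 6565 and 6642 it was −1.72, 0.24, 0.00, −0.03 and −0.14. The livers of mice 6199 and 6240 therefore lay far below the other 7, which spanned −0.14 to 0.29, and there was 1 such liver in each genotype. With the normexp background correction this held for liver 6240 alone, at −0.20, whereas liver 6199 read −0.01, within the −0.07 to 0.11 of the other 7. Both flanks were near 0 in all 9 livers, with a range of −0.08 to 0.09 for the left and −0.08 to 0.04 for the right. The first stretch ranged from −0.02 to 0.22 in the livers and the last from −0.24 to 0.07.

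In the 13 probes of the middle stretch, the liver of mouse 6240 had a mean of −3.57 and that of mouse 6199 −2.69. The other livers had 0.38 in mouse 2430, 0.49 in 5884, 0.64 in 5901, 0.46 in 6602, −0.16 in 6487, −0.10 in 6565 and −0.26 in 6642. Livers 6487, 6565 and 6642 met female control DNA, and all others, 6199 and 6240 included, met male control DNA. Cy3 of the control DNA itself was lower with male than with female control in this stretch, as given below. Cy5 was well above background at only 3 of the 13 probes in each of the livers of mice 6199 and 6240, against 12 or 13 in the other 7 livers, so their ratios at the other 10 probes are not measured levels but bounds. For bounds, each such probe was set to the dimmest Cy5 signal still well above background on that array, or its own where higher. The sample DNA of the stretch was then on average 5.97-fold lower than the control DNA in liver 6240 and 3.08-fold lower in liver 6199. These are lower limits only under the background subtraction of the deposited ratios, and only Cy5 was bounded. Without background correction the stretch read −1.20 in liver 6240 and −0.45 in liver 6199. With the normexp correction it read −0.63 and −0.03. In the 3 probes that were well above background in both channels on all 19 arrays, those at 26772611, 26828207 and 26857539, liver 6240 read −1.01, −1.39 and −1.38 and liver 6199 read −0.65, −0.86 and −1.25. Their mean was −1.26 and −0.92 in these livers, and −0.18 to 0.46 in the other 7. A probe stayed among these 3 only where Cy5 was still bright in the low livers, so their values say nothing of the size at the other 10.

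To see how unusual this spread is along the genome, all autosomes were divided into windows of 9 neighbouring probes, 3 of which tile the cluster. The livers spanned 0.25 in the first window of the cluster, 4.22 in the second (26772611 to 26880592) and 1.80 in the third (26892214 to 27057266, 4 probes of the middle stretch and the last 5). Of 24598 windows, 99 (0.402%) spanned more than 1, 2 of the 3 in the cluster among them. No window spanned more than the second of the cluster and 8 spanned more than the third. In both of these the livers of mice 6199 and 6240 lay more than 1 below every other liver, which held for 0 of the 24585 windows outside the cluster and its flanks. The stretch was chosen for such values, so its place among the windows is no independent evidence. The spans also rest on the deposited ratios, in which livers 6199 and 6240 were dim in Cy5 at most probes of the middle stretch. With normexp the middle stretch of liver 6199 read −0.03. Spans of the windows under other background corrections are not given here.

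**Figure D2:**
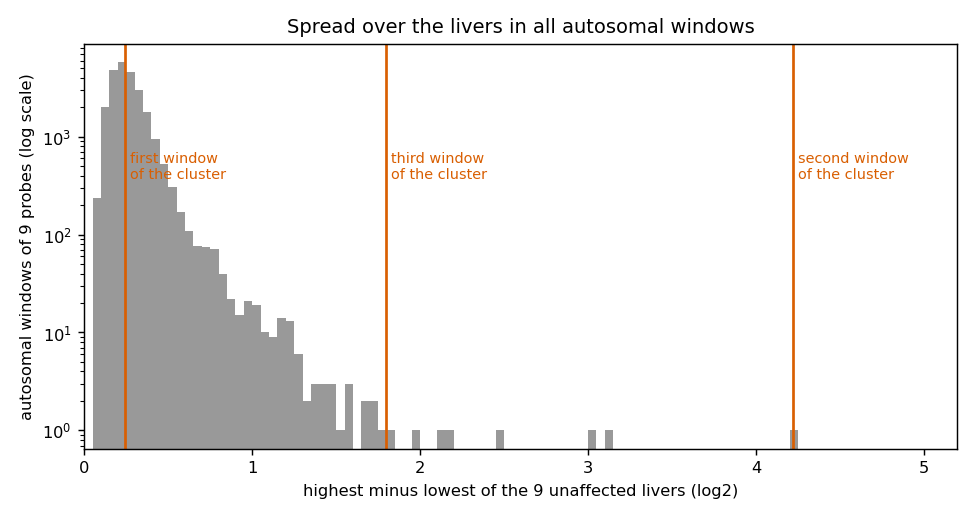
Number of autosomal windows of 9 probes (y axis, log scale) by the difference between the highest and the lowest of the 9 unaffected livers in log2 units (x axis). Vertical lines mark the 3 windows of the Cyp2b cluster, at 0.25, 4.22 and 1.80, of which the second is the farthest right of all 24598 windows. All values come from the deposited ratios, with their background subtraction.

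Outside the cluster and its flanks, the 3 windows whose values over the 9 livers were most like those of the cluster were found by Pearson's r. They lay at chr1:78726192-78814352 (r = 0.98), chr6:83151956-83249001 (r = 0.93) and chr15:84820950-84862245 (r = 0.93). Without the 2 livers farthest from the median of the cluster, those of mice 6199 and 6240, r was 0.85, 0.96 and 0.47 over 7 livers. Their range was small. The Chr1 window read −0.31 in liver 6199, −0.47 in liver 6240 and 0.04 to 0.34 in the others, and the other 2 windows stayed between −0.14 and 0.14 in all livers. With so many windows searched, values of this size are a description only.

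Mice 6199 and 6240 were low in tumor as well as in liver. Over the whole cluster, HCA 2430, 5884, 5901 and 6199 read 0.09, 0.11, 0.35 and −0.82. The HCCs read −1.90 and −1.59 in tumors 4 and 2 of mouse 6240, 0.40 in 6602, −0.21 in 6487, −0.09 in 6565 and −0.59 in 6642. The lowest tumors were thus those of mice 6240 and 6199, whose livers were also the lowest. The SD of the level was 0.74 over the 9 livers and that of the difference between tumor and own liver 0.26 over the 9 mice. Without these 2 mice the order turned, with an SD of 0.17 over 7 livers and of 0.20 over 7 differences. The 7 livers met different control DNA by sex, whereas each difference sets a tumor against a liver with the same control DNA. Within 1 control DNA the SD was 0.04 over the 4 female livers and 0.07 over the 3 male livers. Averaged per mouse, the difference of tumor minus own liver was 0.08 ± 0.28 (SD, n = 4) in mice with HCA and −0.12 ± 0.23 (SD, n = 5) in mice with HCC. The mean in HCA had no stable sign, since it became −0.05 without mouse 6199, and that in HCC became −0.03 without mouse 6642.

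**Figure D3:**
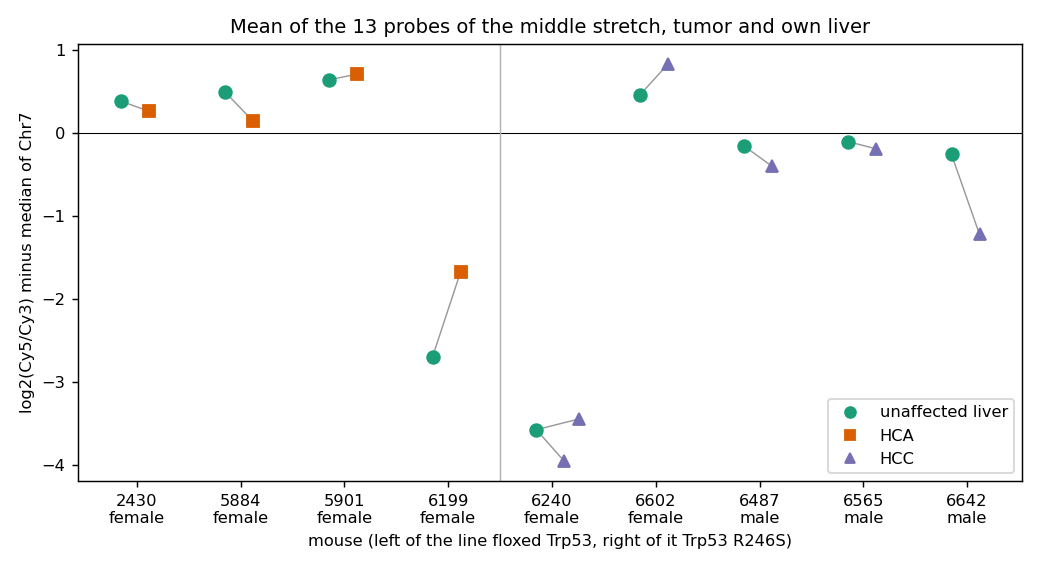
Mean log2(Cy5/Cy3) of the 13 probes of the middle stretch, minus the median of Chr7 (y axis), in the unaffected liver (circles) and the HCA (squares) or HCC (triangles) of each mouse (x axis, with sex), where lines join a tumor to its own liver and each point is 1 array. Mice 6199 and 6240 are low in liver and tumor alike, at −2.69 and −1.67 and at −3.57, −3.96 and −3.44, and the only tumor that is low beside a liver near 0 is HCC 6642. The point at −3.44, HCC 2 of mouse 6240, is a mean of 12 probes, since 1 outlier spot was left out.

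HCC 6642 differed most from its liver among the HCCs. In the middle stretch it read −1.22 against −0.26 in the liver, or 42.9% of the control DNA against 83.6%. Each of the 13 probes was lower than in the liver, by −0.36 to −1.71 with a mean of −0.96. Cy5 was well above background at all 13 probes in both samples, and the 3 probes well above background on all arrays had a mean of −0.74 against −0.18. The first and last stretches of this tumor differed from its liver by 0.01 and 0.04, and the left and right flanks by −0.11 and −0.00. Of all windows, 0.305% lay more than 0.3 from the own liver in this tumor, 2 of the 3 of the cluster among them, and no window on any autosome lay farther from 0 than the −0.88 of the second. The stretch was chosen on such differences, so this place among the windows is no independent evidence. Tumor DNA comes from a mixture of cells, in which a change in some cells and a smaller change in all of them cannot be told apart.

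HCA 6199 differed from its liver in the other direction. In the middle stretch it read −1.67 against −2.69, higher at 12 of the 13 probes. Cy5 was well above background at 8 probes in the HCA and at 3 in the liver, so this difference lies between values that are partly bounds. With bounds in place of the dim probes it was −1.14 against −1.62, and the 3 probes well above background on all arrays had a mean of −0.42 against −0.92. Of all windows 0.207% were past 0.3 in this tumor, 2 of the 3 of the cluster among them, and none lay farther from 0 than the 0.99 of the second. Here too the place among the windows is no independent evidence, and the value rests partly on dim probes. The direction of the difference depended on the background correction. With median signals left without correction the middle stretch read −0.51 in the HCA and −0.45 in its liver, whereas HCC 6642 still read −0.59 against −0.17. With normexp the HCA read −0.36 against −0.03. HCC 6642 then read −0.31 against −0.20, in the same direction but much closer to its liver.

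Mouse 6240 had 2 HCCs, whose differences from the liver had opposite signs only before the dim probes were bounded. Tumor 4 read −3.96 and tumor 2 −3.44 in the middle stretch, beside −3.57 in the liver. With bounds for the 10 and 9 dim probes they read −2.51 and −2.55, beside −2.58. The values with bounds were thus not told apart at the level the dim probes allow, where most probes were set to a bound. In the 3 probes well above background on all arrays, tumors 4 and 2 read −1.16 and −1.06, beside −1.26 in the liver. The mean of tumor 2 rests on 12 probes, since 1 outlier spot was left out. Of all windows, 3.57% in tumor 4 and 0.687% in tumor 2 were past 0.3, and 1 of the 3 of the cluster in each.

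The other tumors stayed closer to their livers. HCC 6602 read 0.83 in the middle stretch against 0.46 and was higher at 12 of 13 probes, with 1 window of the cluster past 0.3 beside 3.35% of all windows. HCC 6487 read −0.40 against −0.16, with 1 window past 0.3 beside 1.64% of all. HCC 6565 read −0.19 against −0.10 and had 0 beside 0.793%. HCA 5884 read 0.14 against 0.49 and was lower at 10 of 13 probes, with 2 windows past 0.3 (−0.30 and −0.31) beside 4.82% of all. HCA 2430 read 0.26 against 0.38 and HCA 5901 0.71 against 0.64, each with 0 windows past 0.3, beside 1.33% and 0.634%. The HCA and the liver of mouse 5901 were scanned on different days. The first window of the cluster passed 0.3 in 0 of the 10 tumors.

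In the flanks, tumor and liver differed by less than the spread between mice. Over the 9 mice the left flank differed by −0.01 ± 0.06 (SD, n = 9; exact two-sided sign-flip permutation p = 0.61) and the right flank by −0.02 ± 0.05 (SD, n = 9; p = 0.18 by the same exact permutation). The right flank passed the threshold without mouse 2430, at −0.04 with an exact permutation p of 0.0078 over 8 mice, and in no other case of leaving out 1 mouse. No window of the genome differed between tumor and own liver in limma with Benjamini-Hochberg adjustment at 0.05 (0% of 24598), and 2910 had an unadjusted p under 0.05. Of the windows of the cluster 0 of 3 were called, which is a contrast the choice of the stretch had used.

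Between tumor types, the difference from the own liver over the whole cluster was −0.12 in mice with HCC and 0.08 in mice with HCA. The gap of −0.20 was smaller than the SD over the mice of either type, and the mice with HCC (−0.45 to 0.17) overlapped those with HCA (−0.13 to 0.49). The probes of the middle stretch alone gave a gap of −0.36, and without mouse 6199 that of the whole cluster was −0.06.

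Trp53 genotype was compared in the unaffected livers. The 5 Trp53 R246S livers had a mean of −0.33 ± 0.79 (SD, n = 5) and the 4 floxed livers −0.15 ± 0.78 (SD, n = 4), a difference of −0.18 that was smaller than either SD. The groups overlapped, and without mouse 6240 the sign turned, to 0.16. Without mice 6199 and 6240 the difference was −0.22, with all 3 male livers among the Trp53 R246S livers. Only the second scan day held livers of both genotypes, 1 of each, and there liver 6487 lay 1.31 above liver 6199. In limma with Benjamini-Hochberg adjustment 45 windows, or 0.183% of the genome, differed between the genotypes, and 0 of the 3 in the cluster were among them. Their differences of R246S minus floxed were 0.07 ± 0.06 (SE), −0.50 ± 0.72 and −0.12 ± 0.35. Nothing is read from this count, since the levels of the livers had served to choose the stretch.

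Leaving mice 6199 and 6240 aside, the sexes had separate levels in the middle stretch. The 4 other female livers had a mean of 0.49 ± 0.11 (SD, n = 4; 0.38 to 0.64) and the 3 male livers −0.17 ± 0.08 (SD, n = 3; −0.26 to −0.10), with no overlap. On the third scan day, which held both sexes, female liver 6602 read 0.46 and the male livers 6565 and 6642 read −0.10 and −0.26. The first stretch of the same livers overlapped, at −0.02 to 0.17 and −0.00 to 0.22. Because the 2 sexes had different control DNA, each channel was also read on its own, as log2 signal relative to the rest of Chr7 and to the mean Cy3 signal of the same probes over all arrays.

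The control channel itself differed in the middle stretch. Cy3 was −0.23 ± 0.14 (SD, n = 13; −0.44 to 0.05) on the arrays with male control DNA and 0.49 ± 0.07 (SD, n = 6; 0.39 to 0.56) on those with female control DNA, without overlap. The same held within both scan days that had both control DNAs, with −0.44 to 0.05 against 0.39 and 0.43 on the second and −0.30 to −0.04 against 0.49 to 0.56 on the third. In the first stretch it was 0.01 ± 0.03 (SD, n = 13) and −0.02 ± 0.02 (SD, n = 6), and in the last −0.00 ± 0.11 (SD, n = 13) and 0.01 ± 0.05 (SD, n = 6). Each n for Cy3 counts arrays, so these SDs are spreads between arrays and not between control animals. The means of the 2 control DNAs differed by more than 0.5 in 21 of 24598 windows (0.0854%). They differed by 0.65 in the second window of the cluster, with 9 windows farther apart, and by −0.03 and 0.38 in the first and the third. In the sample channel the livers of both sexes overlapped. Cy5 was 0.14, 0.23, 0.20 and 0.38 in the female livers 2430, 5884, 5901 and 6602, and 0.23, 0.42 and 0.29 in the male livers 6487, 6565 and 6642.

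The low samples were low in the Cy5 channel. Cy5 of the middle stretch was −2.97 in liver 6199, −1.62 in HCA 6199, −3.72 in liver 6240 and −4.20 and −3.75 in its HCC 4 and 2. It was −0.69 in HCC 6642 against 0.29 in the liver of that mouse. Cy3 on these arrays was −0.28, 0.05, −0.15, −0.23, −0.30, 0.54 and 0.56 in the same order. HCA 6199 had the highest Cy3 of the 13 arrays with male control DNA.

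**Figure D4:**
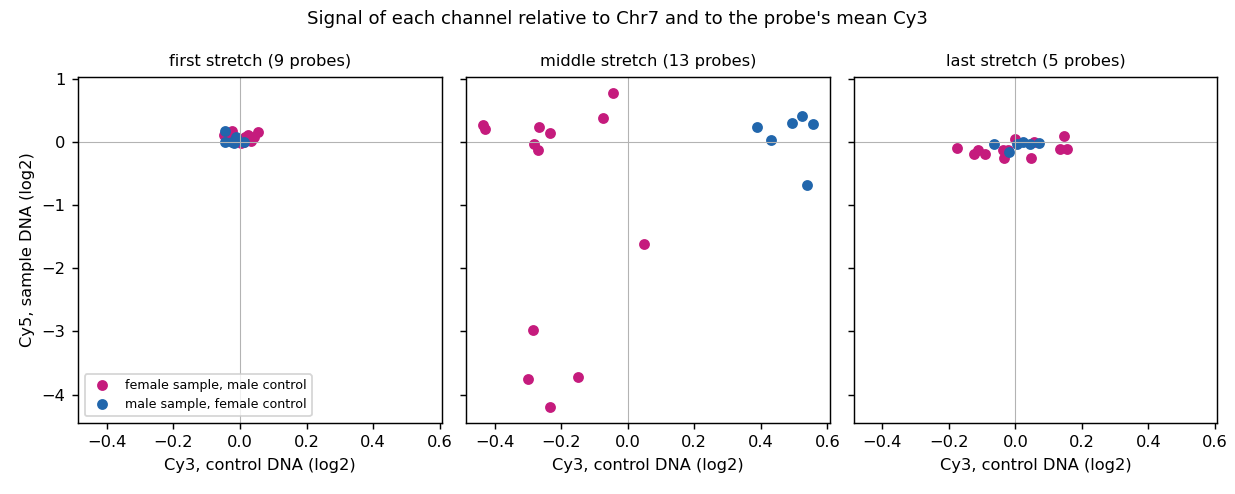
Log2 signal of the sample channel (Cy5, y axis) against that of the control channel (Cy3, x axis) in the 3 stretches of the Cyp2b cluster, each relative to the rest of Chr7 and to the probes' mean Cy3, with 1 point per array. Only in the middle stretch do the arrays part, in Cy3 by control DNA (male control −0.44 to 0.05, female control 0.39 to 0.56) and in Cy5 by the samples of mice 6199 and 6240 and HCC 6642.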

How the data were processed

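DNA of 9 livers, 4 HCAs and 6 HCCs was hybridized to Agilent arrays of 243301 spots. The authors deposited, per the file headers, log10 ratios and the intensity of each spot and of its background from Feature Extraction 10.5.1.1, after spatially detrended background subtraction and linear dye normalization, with positions on NCBI37. A deposited table holds the same log10 ratios. Flags of the software (other) marked outlier spots, which were left out; saturated spots were kept. Median signal over local background was 1.85 to 4.88 in Cy5 and 3.01 to 4.90 in Cy3, and the noise between neighbouring probes was 0.179 to 0.418. This noise was lowest in HCC 4 of mouse 6240 and highest in the liver of that mouse.

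Ratios were turned to log2 and centred on the rest of Chr7. The window of the cluster, the stretches and all lists were chosen with earlier results of these data known. Tumor and liver were paired because they come from 1 animal. The planned fits by gene (at least 3 probes) were run on windows of 9 neighbouring autosomal probes, minus the median of the chromosome, since the files name no genes. That choice followed a look at the files. The genes to be named were the 3 Cyp2b genes, neighbours up to the ends of the flanks, the 3 genes most like the cluster over the livers and a list of drug metabolism genes. Only the first could be named, windows took the place of the third, and the list was not analysed here. Planned exact tests of the cluster between tumor types and between genotypes are not given, since the same values had served to choose the stretch. Tests were exact permutations for the flanks and, for windows, limma 3.58.1 (R 4.3.3, lmFit and eBayes, Benjamini-Hochberg, threshold 0.05). The steps were tested on simulated data. Alternatives covered background correction, loess, centring, probe filters, pairing, scan day and each mouse left out.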

Additional observations from a re-analysis of the deposited data

Results flagged for a closer look

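Dixon's criterion, by which the gap of the lowest or highest sample to its neighbour is set against the range of the group, was applied to 42 groups of levels or differences in the cluster, its stretches and its flanks. Chance sets a sample apart in about 1 in 20 groups, and the stretches overlap with the cluster. Liver 6199 was set apart among the 4 floxed livers, at −1.31 over the cluster (gap over range 0.933) and −2.69 in the middle stretch (0.923). Liver 6240 was set apart among the 5 Trp53 R246S livers, at −1.72 over the cluster (0.809) and −3.57 in the middle stretch (0.822). The stretch was chosen on these levels, so the rate of 1 in 20 does not apply to them and these calls are a description only. Among all 9 livers, of which these 2 are the lowest, none was set apart.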

How the results depend on the processing

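Liver 6240 and the difference of HCC 6642 from its own liver stayed below 0 under all 6 alternatives run for them, but not at the same size, and liver 6240 stayed below the other 7 livers. Liver 6199 did so under 5, but with normexp it lay among them (−0.07 to 0.11). The cluster mean of liver 6240 was −0.56 without background correction, −0.20 with normexp, −0.58 as a median and −0.26 over the 16 cluster probes well above background on all arrays, and that of liver 6199 was −0.22, −0.01, −0.65 and −0.18. Normexp and no correction also shrank the median size of the X ratio, from 0.957 to 0.329 and 0.536. HCA 6199 minus its liver turned to −0.135 with normexp and −0.029 without correction.

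The mean of tumor minus own liver in HCA turned to −0.019 with normexp, −0.020 without correction and −0.054 without mice 6199 and 6240 (an alternative added after seeing the data), and ranged from −0.054 to 0.15 as each mouse was left out. In HCC this range was −0.19 to −0.030. HCC minus HCA turned to 0.014 with normexp and ranged from −0.27 to −0.061 over single mice left out. The genotype difference in liver turned to 1.31 within scan days (1 liver each) and ranged from −0.57 to 0.16 over mice left out. The left flank turned to 0.011 with normexp (range over mice left out −0.022 to 0.0031), and the right flank ranged from −0.036 to −0.015. The exact permutation p of both flanks stayed above 0.05 under all alternatives apart from the right flank without mouse 2430.

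Windows called between tumor and own liver rose from 0 to 9713 when centred on the autosomal median, which keeps changes of whole chromosomes, and ranged from 0 to 46 as mice were left out, with 46 without mouse 5901. Windows called between genotypes in liver fell from 45 to 0 with normexp and were 27 of 11062 (0.244%, against 0.183%) with windows of 20 probes (added after seeing the data), and ranged from 18 to 73 as mice were left out. The median number of windows past 0.3 in a tumor was 261.5 of 24598 (1.06%), and 3828 with autosomal centring, 103.5 with normexp and 37.5 of 11062 (0.339%) with windows of 20 probes, the last 3 also added after seeing the data.

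Without the replicate block, that is with tumors and livers unpaired, the mean of tumors minus livers was −0.33 in HCC in place of −0.12, since mouse 6240 then counts with 2 tumors. HCC minus HCA was −0.60, which compares the levels of the tumors with the livers left out as well. As before, 0 windows were called, and no call changed for the flanks. Restricting to probes named as Cyp2b genes and to genes with at least 1 probe was not run, since the files name no genes. Signal near background limits the samples of mice 6199 and 6240, in which Cy5 was well above background at 3 to 8 of the 13 probes of the middle stretch.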
